A study of Mus musculus with 18 samples.

Results

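The 36 genes described here encode the enzymes and regulators of sterol and fatty acid synthesis, and they were taken by symbol from a table of 24116 genes. They fall into a sterol branch of 19 genes, a fatty acid branch of 12 genes and 5 regulators. RNA came from intestinal organoids, epithelial structures grown in culture from stem cells of the gut, made from wild-type C57BL/6 mice aged 8 weeks. Messenger RNA was sequenced at days 0, 1, 2, 3, 4 and 5 with 3 libraries a day, 18 in all. Every library pooled 30 wells. They came from 3 organoid lines. Before day 0 the lines were kept in IntestiCult growth medium, and from day 0 the medium was ENR, with EGF, Noggin and R-spondin. The labels do not say whether the day 0 RNA was taken before or after the change to ENR. From day 0 to day 1 ENR also held 20% Wnt3a-conditioned medium, 10 µM of the ROCK inhibitor Y-27632 and 3 µM of the GSK3 inhibitor CHIR99021. CHIR99021 was left out from day 1, and Wnt3a-conditioned medium and Y-27632 were left out from day 3, so that days 4 and 5 had ENR alone. Day and medium therefore change together and cannot be told apart. Replicate 1 of each day was not treated with DNase (6 libraries) and the other 12 were. The titles give mouse 1 for replicate 1 and mouse 3 for replicate 3, and mouse 2 for replicate 2 except at days 1 and 2, where it is mouse 1.

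Cells build sterols from acetyl-CoA through mevalonate, isoprenoids and squalene, and they build fatty acids from the same acetyl-CoA through malonyl-CoA. Both routes are under the SREBP transcription factors: SREBPs are held in the endoplasmic reticulum with their escort Scap and the Insig proteins when sterols are plentiful, and are cut and sent to the nucleus when sterols are scarce. The gut epithelium is a site of sterol synthesis, and its enterocytes also take up, re-esterify and export dietary lipid.

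Upstream sequences are shown for 5 members to set the promoters beside the values: Hmgcs1, the member with a match to the core of the sterol regulatory element, and Tm7sf2, Insig1, Acss2 and Fads2, which were called with a log2 change of at least 1 in some comparison and have a single entry in the promoter table. They are from RefSeq (GRCm38.p6), 5′ to 3′ on the strand of the gene, and cover the 250 bases before the start of transcription. Capitals mark each match, on either strand, to the letters CCAAT and to CACNCCAC or its longer form TCACNCCAC.
Hmgcs1, chr13:119690101-119690350, plus strand: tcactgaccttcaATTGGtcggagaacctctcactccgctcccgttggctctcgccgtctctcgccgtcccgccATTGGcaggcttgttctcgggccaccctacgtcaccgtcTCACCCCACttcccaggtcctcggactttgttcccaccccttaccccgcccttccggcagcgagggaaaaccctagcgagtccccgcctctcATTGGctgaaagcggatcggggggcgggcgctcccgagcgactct
Tm7sf2, chr19:6067851-6068100, minus strand: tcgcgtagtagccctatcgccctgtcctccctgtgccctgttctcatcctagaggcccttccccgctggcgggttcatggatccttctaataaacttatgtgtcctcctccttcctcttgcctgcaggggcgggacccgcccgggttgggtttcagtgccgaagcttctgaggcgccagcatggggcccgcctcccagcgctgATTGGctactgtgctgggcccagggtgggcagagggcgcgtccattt
Insig1, chr5:28071162-28071411, plus strand: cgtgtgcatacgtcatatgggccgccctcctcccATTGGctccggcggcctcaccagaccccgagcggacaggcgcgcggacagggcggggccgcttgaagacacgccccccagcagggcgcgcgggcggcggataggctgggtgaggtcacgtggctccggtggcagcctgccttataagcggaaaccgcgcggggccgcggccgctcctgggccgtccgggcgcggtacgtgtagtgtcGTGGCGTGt
Acss2, chr2:155517793-155518042, plus strand: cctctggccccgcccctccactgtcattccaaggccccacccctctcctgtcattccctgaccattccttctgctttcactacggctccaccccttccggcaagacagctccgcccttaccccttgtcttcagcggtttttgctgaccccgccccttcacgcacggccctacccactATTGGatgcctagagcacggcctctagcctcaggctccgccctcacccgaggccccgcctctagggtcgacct
Fads2, chr19:10101504-10101753, minus strand: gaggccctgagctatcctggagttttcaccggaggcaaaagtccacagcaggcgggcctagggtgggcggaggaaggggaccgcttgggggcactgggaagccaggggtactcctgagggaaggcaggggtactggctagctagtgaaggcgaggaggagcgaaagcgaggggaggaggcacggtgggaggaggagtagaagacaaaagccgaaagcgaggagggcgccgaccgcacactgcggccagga

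Promoters of 29 members were matched by Entrez gene identifier, with 38 entries. Fdps, Fdft1, Sqle, Stard4, Scd1, Scd2 and Fads1 had none. Each window ran from 250 bases before to 50 after the start, and both strands were searched. CCAAT, the box bound by the factor NF-Y, which works with SREBPs at many sterol genes, was in the window of 24 of the 29 (82.8%) against 43.2% of the 8822 tested genes with an entry. It was found in 14 of 15 sterol genes, all but Acat2, and in 6 of 9 fatty acid genes, all but Acaca, Elovl6 and Fads2. Among the regulators it was found in 4 of 5, all but Scap. TCACNCCAC, a core of the sterol regulatory element that SREBPs bind, was in 1 of 29 members, Hmgcs1, starting 137 bases before the start, against 1.37% of tested genes. CACNCCAC, which every TCACNCCAC contains, was in 3 of 29 (10.3%), namely Acat2, Hmgcs1 and Insig1, against 7.36%. A gene with more than 1 entry was counted once. A match describes letters only.

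Levels are in RPKM (reads per kilobase of a gene, scaled to a common library size) and are given as means ± SD of n = 3 libraries. Libraries held an implied 43010000 to 53930000 reads, so 1 RPKM stands for 43.0 to 53.9 reads per kilobase. Beyond the lines and the mouse in the titles nothing says how the 3 libraries of a day relate, and where 2 share a mouse (days 1 and 2) their spread may be partly technical. The 8 epithelial markers were present in all 18 libraries, with Epcam at 350 to 505 RPKM. Of the adipocyte markers Cfd and Lep were listed at 0 in all 18 libraries and Adipoq in 17, Plin1 was at most 0.0319 RPKM, and Cidec, which coats lipid droplets, was at 4.23 to 31.5 RPKM. The summed level of 6 mesenchymal markers was at most 2.18 RPKM in any library, that of 5 immune markers at most 0.836 and that of 3 endothelial markers at most 0.206. In the whole-series data 3 libraries were taken as standing apart from their day, namely day 0 replicate 1, day 3 replicate 2 and day 4 replicate 3. No rule for this choice is given here. A library outside it also differed from its day: day 4 replicate 1 was the lowest for 60.7% of all tested genes. In the members, day 0 replicate 1 was the lowest of its day for 8 of 11 tested fatty acid genes (72.7%, against 46.7% of all tested genes). Day 3 replicate 2 was the lowest of its day for 19 of 19 sterol genes (100%, against 31.8%). Its 7 ATF4 stress-response markers summed to 782 RPKM against 313 and 369 in the other day 3 libraries. Those markers were listed because a library stood apart, so their sum describes the library and is no separate evidence. Day 4 replicate 3 was the lowest of its day for 11 of 19 sterol genes (57.9%, against 26.3%). Results are given with and without these 3 libraries.

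Of the 36 members, 35 reached 1 RPKM in at least 3 libraries and were tested. Acacb, the acetyl-CoA carboxylase of mitochondria, was at 0.0391 to 0.289 RPKM and was not. Desaturases headed the order of levels: Scd2 was at 250 to 632 RPKM with a median of 390, and Scd1 at 50.7 to 280 with a median of 121. Both put the double bond into saturated fatty acids, and their ranges over the libraries overlapped. Hmgcs1, which makes the precursor of mevalonate, followed at 67.1 to 189 RPKM (median 96.8). At the low end, Idi1, which isomerises the building block of isoprenoids, was at 1.88 to 6 RPKM, and Acaca, the cytosolic acetyl-CoA carboxylase, had day means of 1.97 to 2.71. Reads of Idi1, Acaca, Acat2, Fdps, Fdft1 and Me1 could in part have been assigned elsewhere, because 25.3% to 39.1% of the 50-base windows of their transcripts occurred in another gene as well. How the counting treated such reads, and whether it used strand, is not given in the sources used here.

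**Figure D1:**
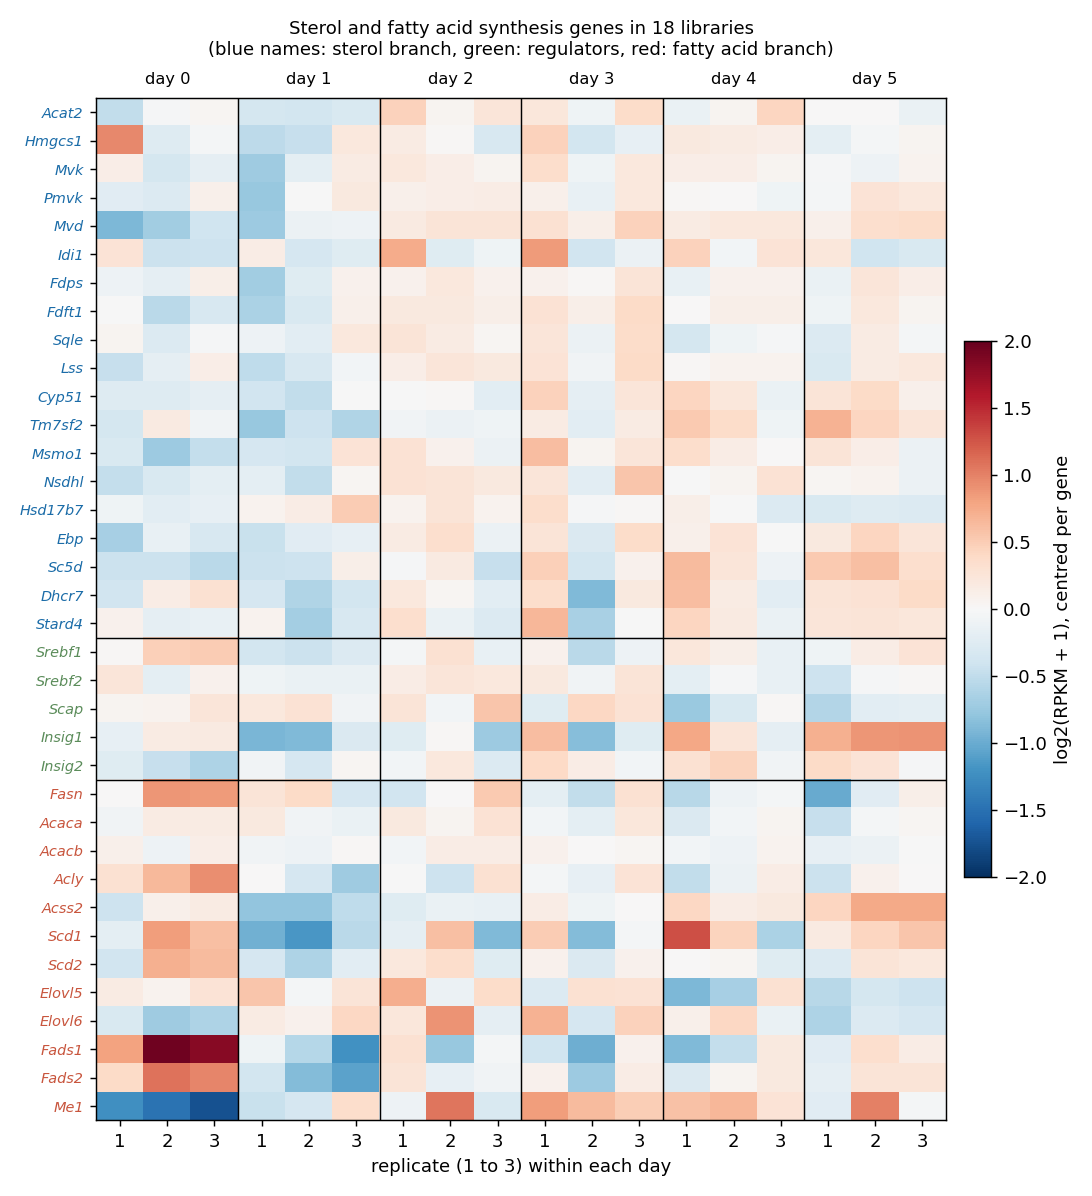
Level of each of the 36 genes (rows) in each of 18 libraries (columns, by day and replicate) as log2(RPKM + 1) minus the gene's mean, with red above and blue below that mean. Fads1 and Fads2 are red in the day 0 libraries and Me1 is blue there. Most sterol genes are blue at day 0 and in day 1 replicates 1 and 2. More of them are red from day 2, but several libraries are mixed, among them day 1 replicate 3 and day 2 replicate 3. In day 3 replicate 2 most are blue.

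Over the 6 days 8 of 35 members differed by limma's F test at an adjusted p under 0.05 (22.9%), where 25.3% of the 11111 tested genes did. They were 3 sterol genes (Mvd, Tm7sf2 and Sc5d), 4 fatty acid genes (Acss2, Fads1, Fads2 and Me1) and the regulator Insig1. Unadjusted p-values were under 0.05 for 21 of 35 members and for 4784 of the 11111 tested genes. Acss2 had the lowest adjusted p (0.000853), followed by Mvd (0.0032), Me1 (0.00429), Fads1 (0.00833) and Fads2 (0.00978). Sc5d lost this call in 11 of the 18 fits without 1 library, Insig1 in 5 and Fads1 in 2. The count was 19 when day 4 replicate 3 was left out (54.3%, against 45.5% of all tested genes), 13 when day 3 replicate 2 was (37.1%, against 25.5%) and 23 without the 3 libraries that stood apart (65.7%, against 43.7%). Within the 12 DNase-treated libraries it was 4 (11.4%, against 12.2%), and the 6 untreated libraries, 1 a day, allow no test.

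From day 0 to day 1 several fatty acid genes changed and no sterol gene passed the test. In all, 5 of 11 fatty acid genes changed: Fads1, Fads2, Acly and Acss2 fell and Me1 rose. The regulator Srebf1, which encodes the SREBP best known for fatty acid genes, fell as well. None of the 19 sterol genes passed, and 2 of them had an unadjusted p under 0.05, as did 3600 of the 11111 tested genes. These were 6 of 35 members (17.1%, against 18.6% of all tested genes), 1 higher and 5 lower (9.54% and 9.05% of all tested genes). The median log2 change was -0.65 over the fatty acid branch, -0.06 over the sterol branch and 0 over all tested genes. In bulk samples fewer cells of a type and less RNA per cell cannot be told apart.

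Fads1 and Fads2 encode the desaturases that make long polyunsaturated fatty acids, with Fads2 acting before Fads1, and they lie near each other on chromosome 19 (10182877 to 10196874 and 10062765 to 10101503 in mm10). Fads1 was at 59.8, 132 and 122 RPKM in replicates 1, 2 and 3 of day 0, at 31.7, 22.3 and 14 at day 1, at 41.8, 19.4 and 32.6 at day 2, at 25.4, 16.7 and 35.8 at day 3, at 17.9, 23.9 and 38.6 at day 4 and at 28.5, 42.6 and 37.3 at day 5. Fads2 was at 54, 88.8 and 82.3 RPKM at day 0, at 31.8, 22.1 and 19.1 at day 1, at 49.5, 36.4 and 39.2 at day 2, at 43.6, 24.5 and 45.8 at day 3, at 33.5, 42.7 and 47 at day 4 and at 36.3, 49.4 and 49.3 at day 5. For both genes the 3 day 0 libraries lay above all 15 later ones, and replicate 1 was the lowest at day 0. The log2 change from day 0 to day 1 was -2.15 ± 0.39 (SE) for Fads1 (adjusted p = 0.00186) and -1.59 ± 0.26 for Fads2 (adjusted p = 0.000932). Both calls were kept in each of the 18 fits that left out 1 library and in all 11 other settings tried.

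**Figure D2:**
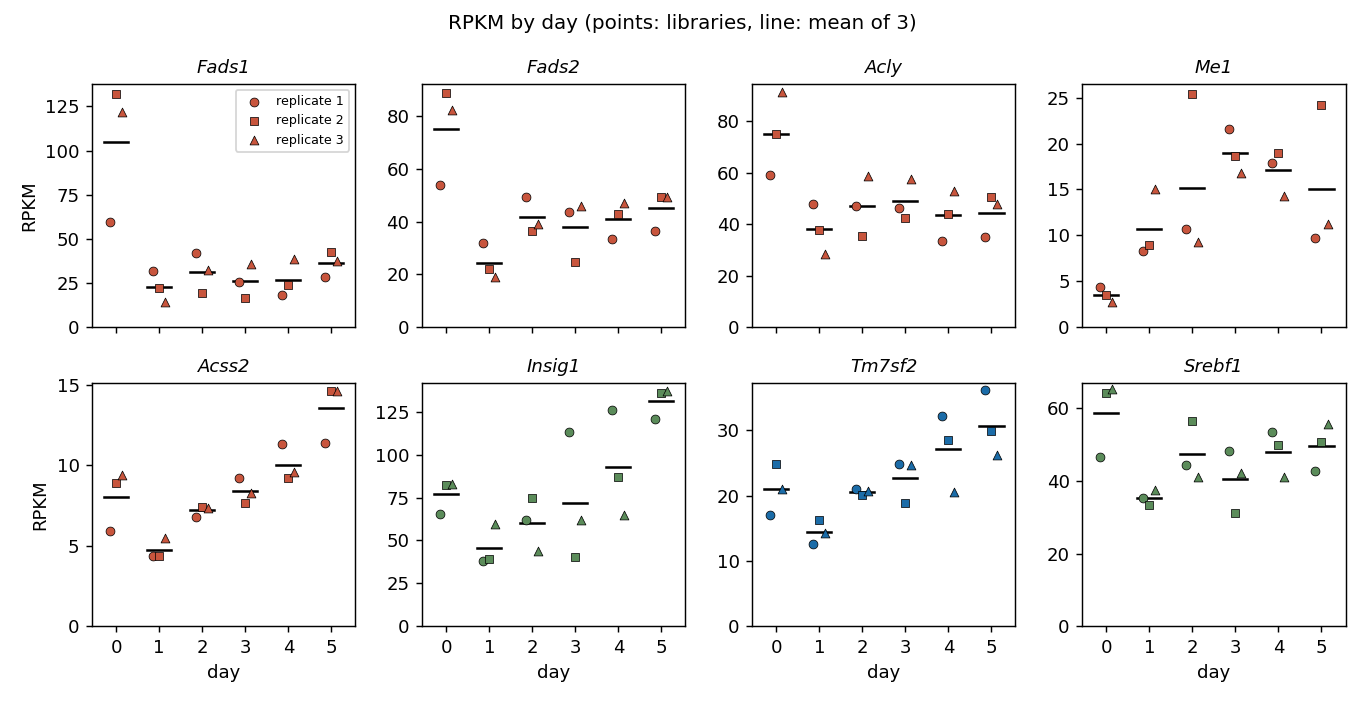
RPKM of 8 members against the day, with 1 point per library shaped by replicate and a line at the mean of 3. Fads1, Fads2 and Acly are highest at day 0, Me1 is lowest there, and Acss2, Insig1 and Tm7sf2 have their lowest mean at day 1 and their highest at day 5.

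Me1 encodes the cytosolic malic enzyme, which supplies NADPH for lipid synthesis (chromosome 9, 86581363 to 86695914). Its level was 4.37, 3.51 and 2.76 RPKM at day 0, 8.27, 8.96 and 15 at day 1, 10.7, 25.4 and 9.22 at day 2, 21.6, 18.6 and 16.8 at day 3, 17.9, 19 and 14.3 at day 4, and 9.76, 24.2 and 11.2 at day 5. All 15 later libraries were above the 3 of day 0. The rise at day 1 was 1.34 ± 0.35 on the log2 scale (adjusted p = 0.0151), and day 5 was 1.73 ± 0.35 above day 0 (adjusted p = 0.00447). Of the windows of Me1 transcripts 28.3% also occur elsewhere, most often in Gm7049.

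Acetyl-CoA for both branches comes from citrate through Acly and from acetate through Acss2. Acly fell from 75.1 ± 16.2 to 37.9 ± 9.63 RPKM between day 0 and day 1 (log2 change -0.97 ± 0.24, adjusted p = 0.0119). Its day 0 values of 59, 74.9 and 91.4 RPKM were above the day 1 values of 47.7, 37.6 and 28.5. Acss2 (chromosome 2, 155518043 to 155562743) was at 5.9, 8.89 and 9.36 RPKM at day 0, at 4.33, 4.34 and 5.48 at day 1, at 6.79, 7.41 and 7.37 at day 2, at 9.2, 7.66 and 8.3 at day 3, at 11.3, 9.21 and 9.6 at day 4 and at 11.4, 14.6 and 14.6 at day 5. Day 1 was thus the low point, and its 3 libraries were below all 15 others. Day 1 was 0.65 ± 0.16 lower than day 0 on the log2 scale (adjusted p = 0.0115). The exons of Acss2 overlap those of Gss, Ggt7 and Acss2os on the opposite strand, with 6.13% of its windows shared, most often with Gss.

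The transcription factor gene Srebf1 (chromosome 11, 60199084 to 60224186) was at 46.6, 64.2 and 65.3 RPKM at day 0, at 35.2, 33.5 and 37.6 at day 1, at 44.5, 56.5 and 41.1 at day 2, at 48.3, 31.1 and 42.3 at day 3, at 53.4, 49.8 and 41 at day 4 and at 42.8, 50.7 and 55.6 at day 5. Its fall at day 1 was -0.70 ± 0.19 on the log2 scale (adjusted p = 0.0168), and no day 1 library reached the lowest of day 0. Srebf2, whose product is best known for sterol genes (chromosome 15, 82147269 to 82205379), was at 57.2, 41.9 and 51.3 RPKM at day 0, at 45.6, 44.2 and 43.9 at day 1, at 53.4, 57.5 and 56.3 at day 2, at 55.6, 46.1 and 57.9 at day 3, at 42.3, 47.5 and 43.4 at day 4 and at 36.1, 47.6 and 49.2 at day 5. Its days overlapped more: the log2 change at day 1 was -0.15 ± 0.14 (adjusted p = 0.495) and the F test gave an adjusted p of 0.219. SREBP activity is set largely by cleavage of the protein, which RNA levels do not measure.

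Other fatty acid genes had unadjusted p-values under 0.05 at day 1 without passing. Scd1 went from 160 ± 54.5 to 62.4 ± 14.2 RPKM (a log2 difference of -1.31 ± 0.46, adjusted p = 0.0619) and Scd2 from 509 ± 186 to 295 ± 41 (-0.72 ± 0.26, adjusted p = 0.0706). Elovl6, which lengthens saturated fatty acids, went the other way, from 23.5 ± 3.76 to 40.4 ± 5.18 RPKM (0.76 ± 0.28, adjusted p = 0.066). Fasn, the fatty acid synthase itself, was at 63.3 ± 19.4 and 44.6 ± 11.1 RPKM (adjusted p = 0.344), with its lowest day 0 value, 40.9 RPKM, within the range of day 1. Without day 0 replicate 1, Scd1 (adjusted p = 0.0429), Scd2 (0.00513) and the sterol gene Tm7sf2 (0.0368) also passed as lower. That made 9 calls (25.7% of the members, against 16.7% of all tested genes).

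Without day 0 replicate 3, Fads1 and Fads2 were the only members called at day 1 (5.71%, against 11% of all tested genes). The adjusted p was then 0.0632 for Acly, 0.0636 for Acss2, 0.0655 for Me1 and 0.0768 for Srebf1. Calls were also lost for Srebf1 without day 0 replicate 2 (0.0724) or day 1 replicate 2 (0.0596), for Acss2 without day 0 replicate 2 (0.0572), and for Acly (0.0664) and Me1 (0.0782) without day 1 replicate 3. Within the DNase-treated libraries 7 members were called, 1 higher and 6 lower (20% of the members, against 19% of all tested genes), and without the 3 libraries that stood apart 12 were, 2 higher and 10 lower (34.3%, against 20.9%). Over the same day 3 of 5 stem cell markers fell and 1 rose, and 3 of 8 enterocyte and 2 of 5 goblet cell markers rose, while 1 Paneth cell marker rose and 1 fell. The stem cell markers summed to 205 to 351 RPKM at day 0 and 59.5 to 170 at day 1, and the enterocyte markers to 1570 to 2210 and 2900 to 6830. Their part in the result was not tested.

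**Figure D3:**
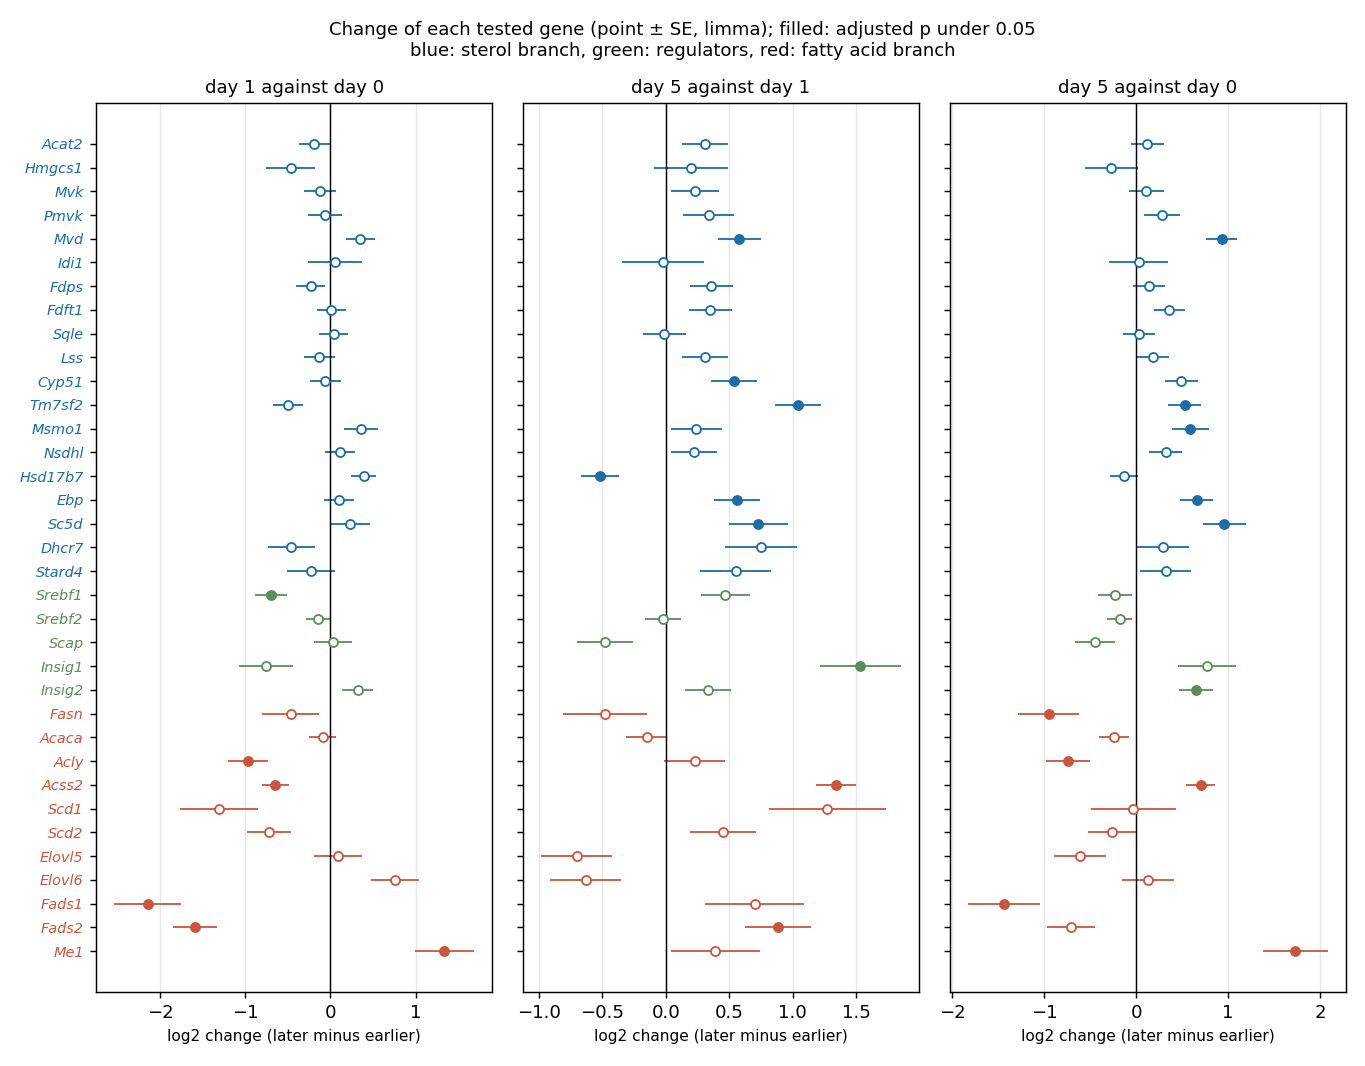
Log2 change on the log2(RPKM + 1) scale of the 35 tested genes (rows, blue sterol, green regulators, red fatty acid) for day 1 against day 0, day 5 against day 1 and day 5 against day 0, as points with SE from limma, filled where the adjusted p is under 0.05. At day 1 the filled points are 5 fatty acid genes and Srebf1, and at day 5 filled sterol genes lie to the right of 0 except Hsd17b7 against day 1.

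No member was called in any of the 4 steps between neighbouring days after day 1, and few genes of the whole table were: 0% of tested genes from day 1 to day 2 and from day 2 to day 3, 0.036% from day 3 to day 4 and 0.189% from day 4 to day 5. From day 1 to day 2 the estimates nevertheless had 1 sign for most members. Of 35 tested members 33 had a positive log2 change, with a median of 0.36 where the median of all tested genes was 0, and 12 had an unadjusted p under 0.05 (all positive) where 263 of 11111 genes did. The exceptions were Hsd17b7 (-0.12 ± 0.15) and Fasn (-0.05 ± 0.33). Acat2, which joins acetyl-CoA units, was at 35.2 ± 0.801 RPKM at day 1 and 54 ± 7.68 at day 2 (unadjusted p = 0.00412), and Mvd, which completes the isoprenoid building block, at 43.2 ± 9.99 and 62.3 ± 2.13 (unadjusted p = 0.00575). The adjusted p by limma was 1 for every member. In the 3 later steps 0, 1 and 1 members had an unadjusted p under 0.05, where 48, 541 and 454 of 11111 genes did. Replicates 1 and 2 of days 1 and 2 share mouse 1.

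By day 5 several genes of sterol synthesis were called above day 0 and 3 fatty acid genes below it. In both branches part of these calls depended on single libraries. Against day 0, 5 of 19 sterol genes rose and none fell: Mvd, Tm7sf2, Msmo1, Ebp and Sc5d. In the fatty acid branch Acss2 and Me1 rose and Fasn, Acly and Fads1 fell, and among the regulators Insig2 rose. These were 11 of 35 members (31.4%, against 24.4% of all tested genes), 8 higher (22.9%, against 11.4%) and 3 lower (8.57%, against 13%). The median log2 change was 0.29 over the sterol branch, with 17 of 19 positive, and -0.26 over the fatty acid branch, with 3 of 11 positive, where the median of all tested genes was -0.17. Rescaling the libraries by the median of ratios put the median of all genes at -0.02 and raised the share of higher calls among all genes from 46.7% to 56.7%. For the members it gave 8 higher and 2 lower, without Fasn (adjusted p = 0.069), in all 28.6% against 25% of all tested genes. Quantile normalization gave 6 higher and 5 lower (31.4%, against 26%).

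Of the 8 genes that turn lanosterol into cholesterol, 4 rose from day 0 to day 5, with a median log2 change of 0.51. Sc5d, the sterol desaturase near the end of the route, rose from 34.5 ± 1.35 to 67.9 ± 6.44 RPKM (0.96 ± 0.23, adjusted p = 0.0121), its 3 day 0 libraries at 32.9 to 35.3. Ebp, the sterol isomerase, rose from 30.4 ± 5.39 to 48.4 ± 4.48 RPKM (adjusted p = 0.0198), and Msmo1, which removes methyl groups, from 39 ± 5.68 to 59.3 ± 7.76 (adjusted p = 0.0408). Of the 7 genes of the mevalonate and isoprenoid part only Mvd passed, rising from 33.4 ± 5.95 to 64.2 ± 6.48 RPKM (0.93 ± 0.17, adjusted p = 0.00246). Its values were 28, 32.5 and 39.8 RPKM at day 0 and 56.7, 67.2 and 68.6 at day 5. None of the 3 genes from squalene synthesis to lanosterol (Fdft1, Sqle and Lss) passed, with log2 changes of 0.03 to 0.36. Stard4, a carrier of cholesterol between membranes, was at 44.4 ± 4.74 and 55.6 ± 0.609 RPKM (adjusted p = 0.374).

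The remaining sterol enzymes were not called over all days and are given by their day means from day 0 to day 5. Of the kinases that phosphorylate mevalonate, Mvk was at 18.2, 17.1, 22, 22.6, 21.5 and 19.6 RPKM and Pmvk at 42.9, 42.3, 51, 48.9, 46.1 and 52.1. Fdps, which makes farnesyl diphosphate, was at 53.8, 46.8, 61.2, 60.9, 56.2 and 59.3 RPKM. Sqle, the squalene epoxidase, was at 78, 80.5, 91.5, 93.1, 74.3 and 79.9 RPKM, and Lss, which closes the sterol rings, at 26.2, 23.7, 33.3, 33.7, 30.2 and 29.8. For these 5 genes the highest day mean was thus less than 1.5 times the lowest, and their F tests gave adjusted p-values from 0.166 (Lss) to 0.54 (Pmvk). Cyp51, which removes a methyl group from lanosterol, was at 67.1 and 65.1 RPKM at days 0 and 1 and at 90.6 to 94.7 from day 3 (F test adjusted p = 0.0896). Nsdhl, which acts with Msmo1 on the methyl groups, was at 45.2 and 49.2 RPKM at days 0 and 1 and at 67.5, its highest, at day 2 (adjusted p = 0.0876).

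In the fatty acid branch Fasn was at 40.9, 75.2 and 73.7 RPKM at day 0 and at 19.6, 34.4 and 44 at day 5, a log2 change of -0.95 ± 0.33 (adjusted p = 0.047) with overlapping groups. Acly was 0.74 ± 0.24 lower at day 5 (adjusted p = 0.0384) and Fads1 1.44 ± 0.39 lower (adjusted p = 0.0179). Fads2 did not pass against day 0 (-0.71 ± 0.26, adjusted p = 0.058). Acss2 was 0.70 ± 0.16 higher (adjusted p = 0.00941), the opposite direction to Acly.

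Mvd, Sc5d, Acss2 and Me1 kept their calls against day 0 in each of the 18 fits without 1 library, with highest adjusted p-values of 0.0128, 0.0497, 0.0377 and 0.0237, and without day 5 replicate 1 they were the only members called. Those 4 calls were 11.4% of the members, against 7.74% of all tested genes. Leaving out day 5 replicate 2 or day 0 replicate 3 gave 5 calls (14.3%, against 14% and 12.8%), leaving out day 0 replicate 2 gave 6 (17.1%, against 11.6%), and leaving out day 4 replicate 2 gave 7 (20%, against 21.2%). No member was called as lower when day 0 replicate 2, day 0 replicate 3 or day 5 replicate 1 was left out. Tm7sf2 lost its call in 12 of these fits (highest adjusted p 0.182, without day 5 replicate 1), and with the mouse as a factor (0.0515). Fasn lost its call in 9 (highest 0.211), Acly in 6 (0.164), Msmo1 in 6 (0.149), Ebp in 3 (0.0701) and Fads1 in 3 (0.0811). Fasn was also lost with only the compared days in the fit, Msmo1 and Tm7sf2 under quantile normalization, and Fasn, Acly, Msmo1 and Tm7sf2 with no filter on low values. Within the DNase-treated libraries 4 members were called, 3 higher and 1 lower (11.4%, against 10.8% of all tested genes). Sc5d was not among them (adjusted p = 0.0532). Without the 3 libraries that stood apart 13 were called, 8 higher and 5 lower (37.1%, against 29.2%). Enterocyte markers rose in 8 of 8 cases over these days, from sums of 1570 to 2210 RPKM to sums of 21200 to 25500, and 4 of 7 proliferation markers fell, from sums of 332 to 371 to sums of 140 to 177. Of the Paneth cell markers 4 of 5 rose, from sums of 534 to 754 RPKM to sums of 2520 to 3400, and of the goblet cell markers 3 of 5, from sums of 105 to 275 to sums of 998 to 1590. Their part in the result was not tested.

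From day 1 to day 5, 5 of 19 sterol genes rose (Mvd, Cyp51, Tm7sf2, Ebp and Sc5d) and Hsd17b7 fell, and with Insig1, Acss2 and Fads2, which rose, 9 of 35 members were called (25.7%, against 27.8% of all tested genes). The 8 higher members (22.9%) stand beside 11.8% of all tested genes and the 1 lower member (2.86%) beside 16.1%. The median log2 change was 0.34 over the sterol branch and 0.39 over the fatty acid branch, where that of all tested genes was -0.15. The comparison shares the day 5 libraries with the one against day 0. Rescaling by the median of ratios moved the median of all genes to -0.01 and the share of higher calls from 42.3% to 54.6%. For the members it gave 12 higher and 0 lower (34.3%, against 27.2% of all tested genes). The Hsd17b7 call was lost under that rescaling (adjusted p = 0.173) and under quantile normalization (0.112).

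Tm7sf2 encodes a sterol reductase (chromosome 19, 6062821 to 6067850) and was the sterol gene with the largest change. It was at 17, 24.9 and 21 RPKM at day 0, at 12.6, 16.3 and 14.2 at day 1, at 21, 20.1 and 20.7 at day 2, at 24.8, 18.8 and 24.7 at day 3, at 32.2, 28.5 and 20.6 at day 4 and at 36.1, 29.9 and 26.2 at day 5. The 3 day 1 libraries were below all 15 others. Day 5 was 1.04 ± 0.18 above day 1 on the log2 scale (adjusted p = 0.00205). Of the windows of its transcripts 9.87% also occur in another gene, most often in Vps51, whose exons overlap it on the same strand.

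Insig1 and Insig2 encode the proteins that hold SREBPs back, and Insig1 is itself a well-known SREBP target. Insig1 (chromosome 5, 28071412 to 28078662) was at 65.4, 82.1 and 83 RPKM at day 0, at 38.3, 39.1 and 59.5 at day 1, at 62, 74.8 and 43.8 at day 2, at 113, 40.1 and 62 at day 3, at 126, 87.2 and 64.7 at day 4 and at 121, 136 and 137 at day 5. Days 0 and 5 had close replicates and did not overlap, whereas days 3 and 4 each spread widely. The rise from day 1 to day 5 was 1.53 ± 0.32 (adjusted p = 0.0052), and day 5 against day 0 did not pass (0.77 ± 0.32, adjusted p = 0.0854). Insig2 (chromosome 1, 121304353 to 121332662) was at 6.45, 5.36 and 4.71 RPKM at day 0, at 7.37, 5.96 and 8.02 at day 1, at 7.4, 9.12 and 6.22 at day 2, at 10.6, 8.75 and 7.48 at day 3, at 9.81, 10.9 and 7.38 at day 4 and at 10.4, 9.64 and 7.61 at day 5. It rose between day 0 and day 5 (0.65 ± 0.18, adjusted p = 0.022) and all day 5 values were above those of day 0. That call was lost without day 0 replicate 2 (0.0655) or 3 (0.0827) and without day 5 replicate 1 (0.0939) or 2 (0.0664).

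Acss2 had the lowest adjusted p of the members from day 1 to day 5 (0.000139), with a rise of 1.34 ± 0.16 on the log2 scale or 2.54-fold, and its day 5 libraries at 11.4 to 14.6 RPKM were above all earlier ones. Fads2 recovered part of its level, from 24.3 ± 6.63 to 45 ± 7.52 RPKM (0.88 ± 0.26, adjusted p = 0.0237). Hsd17b7, a sterol ketoreductase, was at 12.8, 13.5 and 17.7 RPKM at day 1 and at 9.57, 10 and 9.81 at day 5 (-0.52 ± 0.15, adjusted p = 0.0189). Scd1 (1.27 ± 0.46, adjusted p = 0.0523) and Dhcr7, the reductase that completes cholesterol (0.75 ± 0.28, adjusted p = 0.0577), lay just outside the threshold, and with the mouse as a factor they passed as higher (0.0491 and 0.0398), Scap passed as lower (0.0386) and Ebp was lost (0.0517).

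Tm7sf2, Insig1 and Acss2 were called against day 1 in each fit without 1 library, with highest adjusted p-values of 0.0127, 0.0259 and 0.00146, and without day 5 replicate 3 they were the only members called. Those 3 calls were 8.57% of the members, against 15.4% of all tested genes. Leaving out day 5 replicate 2 gave 4 calls (11.4%, against 16.3%), and leaving out day 1 replicate 1, day 1 replicate 2 or day 5 replicate 1 gave 5 (14.3%, against 13.3% to 14.9%). The others lost their call without 3 to 5 libraries each, with highest adjusted p-values of 0.109 for Mvd, 0.132 for Cyp51, 0.0709 for Hsd17b7, 0.123 for Ebp, 0.115 for Sc5d and 0.0743 for Fads2. Within the DNase-treated libraries 5 members were called, 4 higher and 1 lower (14.3%, against 15.1%), and without the 3 libraries that stood apart 14 were, 11 higher and 3 lower (40%, against 38.4%). From day 1 to day 5, 5 of 8 enterocyte markers rose and 6 of 7 proliferation markers fell, the latter from sums of 349 to 452 RPKM. Paneth cell markers rose in 5 of 5 cases, from sums of 144 to 176 RPKM to sums of 2520 to 3400. Their part in the result was not tested.

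Days 4 and 5, in medium without Wnt3a and Y-27632, were compared with days 2 and 3, in medium with both. Day and medium change together in this comparison. Each side had 6 libraries, from no more than 3 organoid lines. Here 4 of 35 members were called (11.4%, against 16% of all tested genes), 2 higher and 2 lower (5.71% each, against 6.47% and 9.56%), and none of these 4 was a sterol enzyme. Tm7sf2 was called as higher with the 5 RPKM filter (adjusted p = 0.0477), median-of-ratios rescaling (0.0422) and quantile normalization (0.0427). Acss2 was 0.53 ± 0.11 higher on the log2 scale (adjusted p = 0.0132), and all 6 later libraries, at 9.21 to 14.6 RPKM, were above the 6 earlier ones at 6.79 to 9.2, by a narrow margin. Insig1 was 0.79 ± 0.23 higher (adjusted p = 0.033). Scap, the sterol-sensing escort of SREBPs, was 0.54 ± 0.15 lower (adjusted p = 0.0338), from day means of 18.1 ± 4.06 and 16.9 ± 4.05 RPKM to 11.8 ± 3.32 and 11.7 ± 1.85. Elovl5, which lengthens polyunsaturated fatty acids, was 0.65 ± 0.20 lower (adjusted p = 0.0412), from 28.1 ± 8.32 and 23.7 ± 5.33 to 17.2 ± 8.64 and 15.6 ± 1.18. The median log2 change was -0.06 over the members and -0.13 over all tested genes. Rescaling by the median of ratios moved the latter to 0 and the share of higher calls among all genes from 40.4% to 60.4%. It gave 3 higher and 2 lower members (14.3%, against 14.1%), and quantile normalization gave 3 higher and 1 lower (11.4%, against 14.3%). Acss2 was the only member called without any 1 of 9 libraries (replicates 1 and 3 of day 2, 2 and 3 of day 3, 1 and 2 of day 4, and the 3 of day 5), with 4.08% to 8.91% of all tested genes called in those fits. Without day 4 replicate 3, 7 members were called (20%, against 38.9%), with the sterol genes Tm7sf2 and Sc5d as higher. Without the 3 libraries that stood apart 10 were, 3 higher and 7 lower (28.6%, against 31.4%), with Tm7sf2 as higher and Acat2, Nsdhl and Sqle as lower. Within the DNase-treated libraries 2 were called, both higher (5.71%, against 5.06%). In the same comparison 5 of 8 enterocyte, 5 of 5 Paneth cell and 3 of 5 goblet cell markers were higher and 3 of 7 ATF4 targets lower. The Paneth cell markers summed to 56.2 to 616 RPKM at days 2 and 3 and to 1110 to 3400 at days 4 and 5. The enterocyte markers summed to 2810 to 12400 and 4610 to 31300, and the goblet cell markers to 251 to 731 and 594 to 1590. The ATF4 targets, listed because a library stood apart, summed to 301 to 782 and 220 to 332. The 782 RPKM was that of day 3 replicate 2. The part of these markers in the result was not tested.

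Relative to their own means, the sterol branch was below the fatty acid branch in the 3 libraries of day 0. The level of a branch is the mean over its tested genes of log2(RPKM + 1), after each gene's mean of 18 libraries was taken off, given as a description. The fatty acid branch was at 0.23 ± 0.27 at day 0 and -0.30 ± 0.12 at day 1, and its 3 day 1 libraries were below its 3 day 0 libraries. The sterol branch was at -0.20 ± 0.06 and -0.24 ± 0.21, with overlapping libraries, a difference of -0.04 that became -0.22 under quantile normalization. Day 5 minus day 0 was 0.31 for the sterol branch, 0.48 under median-of-ratios rescaling and 0.19 under quantile normalization. From day 2 to day 5 the sterol branch was at 0.10 to 0.13 and the fatty acid branch at -0.01 to 0.06. Sterol minus fatty acid was -0.11, -0.66 and -0.52 in replicates 1, 2 and 3 of day 0, -0.24, 0.07 and 0.32 in those of day 1, and -0.03 to 0.38 in the libraries of days 2 to 5. Days 0 and 1 overlapped through their replicates 1. Day 3 replicate 2 was low in both branches, at -0.20 and -0.29, against 0.36 and 0.22 (sterol) and 0.13 and 0.21 (fatty acid) in the other day 3 libraries. Day 5 replicate 1 was the lowest of its day for 11 of 11 fatty acid genes (100%, against 52.5% of all tested genes) but for 10 of 19 sterol genes (52.6%), and its fatty acid level was -0.31 against 0.20 and 0.12.

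**Figure D4:**
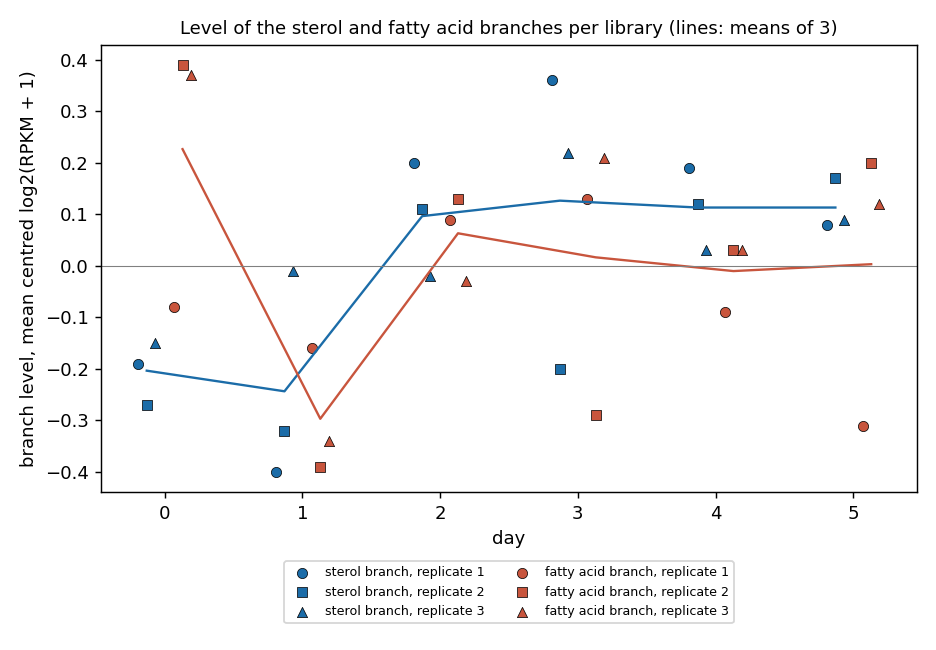
Mean centred log2(RPKM + 1) of the 19 sterol genes (blue) and the 11 tested fatty acid genes (red) against the day, with 1 point per library shaped by replicate and lines through the means of 3. The branches lie apart at day 0, at means of -0.20 and 0.23, and both are low in day 3 replicate 2.

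Ratios between members of 1 family showed which of them moved more, as log2 of the ratio of RPKM + 1 in each library. Fads1 was above Fads2 at day 0 (0.14 to 0.56) and below it at days 2 to 5 (-0.87 to -0.21), with day 1 between them (-0.42 to 0.01). Insig1 to Insig2 had means of 3.58 ± 0.38 at day 0 and 3.71 ± 0.29 at day 5, and the day 1 libraries (2.23 to 2.75) lay below both. Scd1 to Scd2 had its lowest mean at day 1 (-2.24 ± 0.15), and day 4 spread from -2.14 to -0.46. Srebf1 to Srebf2 was negative in all 9 libraries of days 1 to 3 (-0.55 to -0.03) and positive in the 3 of day 5 (0.09 to 0.24), while day 0 spread from -0.29 to 0.60. Elovl5 to Elovl6 fell within -0.18 to 0.24 at day 0 and -0.73 to -0.59 at day 5. Days 1 to 4 spread from -1.72 to 0, and some of their libraries lay within the range of day 0.

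**Figure D5:**
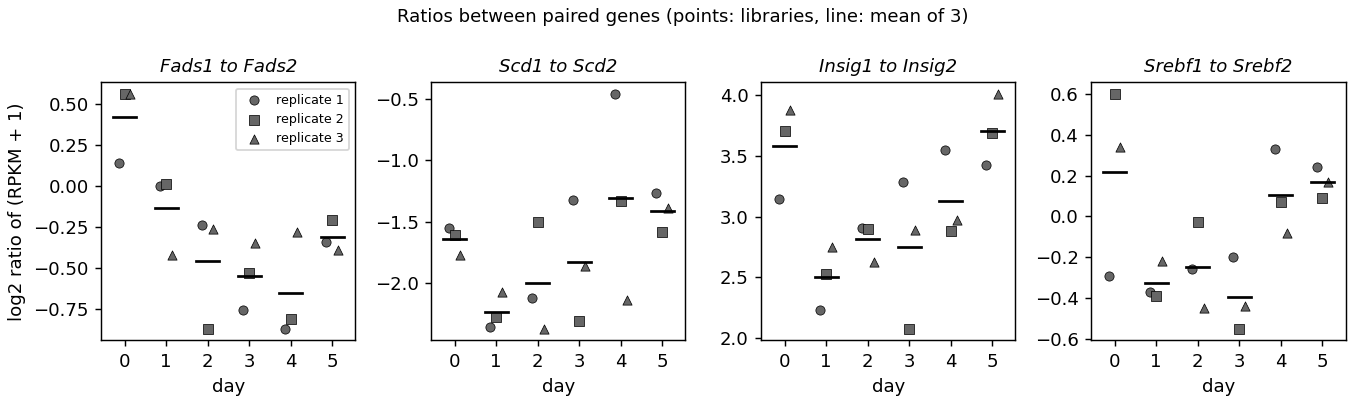
Log2 ratio of RPKM + 1 between 2 genes of a family (Fads1 to Fads2, Scd1 to Scd2, Insig1 to Insig2, Srebf1 to Srebf2) against the day, with 1 point per library shaped by replicate and a line at the mean of 3. The Fads1 to Fads2 ratio is above 0 in all day 0 libraries and below 0 from day 2, and the Insig1 to Insig2 ratio has its lowest mean at day 1.

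Genes around these routes were counted in 6 further lists, over all days, beside the 25.3% of all tested genes. In the machinery of SREBP cleavage and sterol-dependent degradation 1 of 12 was called, Erlin1, a sterol-binding protein of the endoplasmic reticulum, with 13.2 ± 3.24 RPKM at day 1 and 32.4 ± 3.91 at day 5 (1.25 ± 0.28, adjusted p = 0.00694). In the isoprenoid branch 3 of 11 were called. Pdss1, which makes the ubiquinone tail, fell from 43.6 ± 6.72 RPKM at day 0 to 19.5 ± 5.06 at day 1 (adjusted p = 0.0151) and rose to 38.6 ± 9.46 at day 5 (adjusted p = 0.0293 against day 1). Zmpste24, a protease for prenylated proteins, rose from 14.1 ± 2.51 to 21.7 ± 4.15 at day 1 (adjusted p = 0.0309) and was lower at day 5, at 10.1 ± 0.518 (adjusted p = 0.00181 against day 1). Pdss2, the partner of Pdss1, had its highest mean at day 3, 10.4 ± 1.03 RPKM (F test adjusted p = 0.021).

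Sterol uptake, transport and esterification genes were called in 6 of 11 cases. Scarb1, a lipoprotein receptor, was at 33 ± 6.72 RPKM at day 0, at 36.1 ± 7.55 at day 1 and at 7.6 ± 1.59 at day 5 (-2.11 ± 0.30 against day 1, adjusted p = 0.00051). Soat1, a cholesterol-esterifying enzyme, fell from 26.3 ± 12.6 at day 0 to 9.35 ± 0.99 at day 5 (adjusted p = 0.013). Lipa, the lysosomal lipase that frees cholesterol from its esters, rose from 4.51 ± 1.74 to 23.6 ± 8.22 RPKM in the first day (2.16 ± 0.46, adjusted p = 0.00494), and Gramd1b, which carries sterol from the plasma membrane, from 0.524 ± 0.313 to 2.96 ± 1.23 (adjusted p = 0.0055). Of 8 tested LXR, ChREBP and efflux genes 1 was called over all days, Mlx, the partner of ChREBP. It rose from 26.4 ± 2.96 to 49.8 ± 7.83 RPKM in the first day (adjusted p = 0.00286). In that step Mlxipl, which encodes ChREBP, fell from 108 ± 2.2 to 43 ± 12.1 RPKM (-1.34 ± 0.44, adjusted p = 0.0474), and it is named here after its values were seen.

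Genes that activate fatty acids and build glycerolipids were called in 7 of 19 cases. Mogat2, which re-esterifies absorbed monoacylglycerol in enterocytes, rose from 12.9 ± 1.38 RPKM at day 0 to 138 ± 33.6 at day 5 (3.30 on the log2 scale, adjusted p = 0.00187), and Dgat1, the next enzyme, from 70.1 ± 2.46 to 261 ± 14.7 (adjusted p = 0.0108). Acsl5, an acyl-CoA synthetase, rose from 103 ± 8.13 to 370 ± 42.3 (adjusted p = 0.00679). Agpat2 rose in the first day, from 20.7 ± 5.94 to 66.7 ± 20.2 (adjusted p = 0.00382). NADPH supply was called in 4 of 7 genes: besides Me1 among the members, G6pdx rose from 34.9 ± 1.14 to 72 ± 2.66 RPKM in the first day (1.03 ± 0.19, adjusted p = 0.00215) and fell to 37 ± 7.29 by day 5 (adjusted p = 0.00409 against day 1). Pgd (adjusted p = 0.0167) and Taldo1 (0.00628) also rose in the first day, from 169 ± 8.88 to 270 ± 35.9 and from 210 ± 21.6 to 331 ± 34.9, while Idh1 rose between day 1 and day 5, from 111 ± 42.6 to 279 ± 45.8 (adjusted p = 0.0157).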

How the data were processed

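Messenger RNA of mouse intestinal organoids was measured in 18 libraries. The deposited values are RPKM made by the authors, and per the submitters' processing notes the tools were edgeR 3.20.5, STAR 2.5.2b and bcl2fastq 2.17 and the build mm10, with no roles. Annotation, use of strand and handling of multi-mapping reads: not given in the sources used here. Library depth was recovered from the whole-read steps of low RPKM values (83 to 153 genes a library agreed within 2e-05).

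Tests used limma 3.58.1 (R 4.3.3; lmFit, eBayes with a trend) on log2(RPKM + 1) with a coefficient for each day, all 18 libraries, and the 11111 genes that reached 1 RPKM in 3 or more libraries. Fold changes on this scale understate low genes. Tests were two-sided with Benjamini-Hochberg adjustment over all tested genes, with calls made below 0.05. The script was tested on simulated data. Alternatives were the pseudocount, filter, scaling, library weights (limma's arrayWeights, gene by gene), mouse or replicate number as a block, DNase-treated libraries, libraries left out and fits of the compared days only.

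Replicate numbers follow the mouse in the titles apart from replicate 2 at days 1 and 2. Deviations of same-numbered libraries from their day means had median correlations of 0.17, 0.09 and 0.24 for numbers 1, 2 and 3 (lowest -0.64, highest 0.81). Same-mouse libraries share an organoid source, so calls that the mouse block changes stand beside the results. The main fit has no block.

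The members and lists were chosen with earlier results of these data known. Values in all libraries are given for members called with a log2 change of at least 1 at day 1 against 0, day 5 against 0 or day 5 against 1, and for Srebf1, Srebf2 and the Insig genes. Up to 4 genes per other list are named, those called over all days with the largest range of day means. Scd1, Scd2, Elovl6 and other members are described by day means.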

Additional observations from a re-analysis of the deposited data

How the results depend on the processing

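No called member's change turned its sign under the settings tried. The balance of higher and lower calls over all genes turned under median-of-ratios rescaling, as given above. The sterol branch difference of day 1 minus day 0 (-0.04) depended in sign on the libraries kept. In the DNase-treated libraries the levels were -0.27 and -0.15 at day 0 and -0.32 and -0.01 at day 1. There day 1 had the higher mean. Besides the values given above, array weights raised the count of members called to 28 over all days, 15 at day 1 against day 0, 22 at day 5 against day 0, 24 at day 5 against day 1, 10 over the 4 single-day steps after day 1 and 15 for days 4 and 5 against days 2 and 3. Calls over all tested genes rose as well, to 81.8% over all days, 39.3% at day 1 and 63.4% at day 5 against day 0. They rose to 50.8% at day 5 against day 1 and to 58.1% for days 4 and 5 against days 2 and 3. Summed over the 4 single-day steps they came to 44.7% of the tested genes. Quantile normalization gave 10 at day 1 (28.6%, against 18.6% of all tested genes). The DNase-treated libraries alone gave 4 over all days and 4 and 5 at day 5 against day 0 and day 1. They gave 2 for days 4 and 5 against days 2 and 3. With no filter on low values the count was 7 at day 5 against day 0 (19.4%, against 15.8%). For days 4 and 5 against days 2 and 3 it was 1 (2.78%, against 6.46%). Without the 3 libraries that stood apart the counts were 23, 12, 14 and 10 (over all days, day 1 against 0, day 5 against 1, days 4 and 5 against 2 and 3). With only the compared days in the fit the count was 15 at day 5 against day 1 (42.9%, against 39.1%). It was 1 for days 4 and 5 against days 2 and 3 (2.86%, against 3.57%). Leaving out each library in turn gave 6 to 19 members over all days, 2 to 9 at day 1 and 4 to 13 at day 5 against day 0. It gave 3 to 12 at day 5 against day 1, 0 over the single-day steps and 1 to 7 for days 4 and 5 against days 2 and 3. In the same order, 14.3% to 45.5%, 10.6% to 21.7%, 7.74% to 32%, 13.3% to 35.7%, 0.0721% to 0.478% and 4.08% to 38.9% of all tested genes were called. With the replicate number as a block the counts were 10, 6, 11, 9, 0 and 4, and with the mouse as a block 11, 6, 10, 11, 0 and 4, where the main counts were 8, 6, 11, 9, 0 and 4. The replicate block called 31.7%, 22.1%, 30.4%, 32.8%, 0.261% and 20.6% of all tested genes in that order. The mouse block called 30.5%, 19.3%, 27.1%, 34.5%, 0.306% and 24.6%, and the main fit 25.3%, 18.6%, 24.4%, 27.8%, 0.225% and 16%. The blocks lost no call other than those of Tm7sf2 and Ebp given above. The sterol branch level moved from -0.04 to -0.22 at day 1 minus day 0 under quantile normalization, from 0.36 to 0.52 at day 5 minus day 1 under median-of-ratios rescaling, and from 0.31 to 0.48 (median of ratios) or 0.19 (quantile) at day 5 minus day 0. The cause was not tested. At this depth 1 RPKM stands for 43.0 to 53.9 reads per kilobase, and Acacb was below it in every library.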

Other observations

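Idi1 was highest in replicate 1 on all 6 days. Its values in replicates 1, 2 and 3 were 3.67, 1.88 and 1.91 RPKM at day 0, 3.29, 2.06 and 2.29 at day 1, 5.5, 2.28 and 2.64 at day 2, 6, 1.96 and 2.59 at day 3, 4.36, 2.75 and 3.7 at day 4, and 3.54, 1.95 and 2.13 at day 5. Of the 11111 tested genes 171 (1.54%) had replicate 1 highest on every day, and 345 (3.11%) had it lowest. Among the other members Msmo1 and Stard4 had replicate 1 highest on 5 days, and Mvd and Lss had it lowest on 5. Replicate 1 is mouse 1 without DNase treatment at every day, so mouse and treatment cannot be told apart there. Replicate 2 of days 1 and 2, which the titles also give as mouse 1 but with DNase treatment, held 2.06 and 2.28 RPKM of Idi1, near replicate 3. The part of mouse and of treatment in this order was not tested. Of the windows of Idi1 transcripts 25.3% also occur elsewhere, most often in Gm13502.

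Hmgcs1 was at 189 RPKM in day 0 replicate 1, its highest value in any library, against 80.8 and 94 in the other day 0 libraries, while 8 of 11 fatty acid genes were lowest of their day in that library.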
